A study of Mus musculus with 24 samples.

Results

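Genes of the translation initiation factors eIF1 to eIF6 were followed in mouse gastrocnemius, the large calf muscle, after denervation. They were taken by symbol: every row of the deposited table that begins with Eif and a factor number from 1 to 6, without the eIF2 kinases, the eIF4E-binding proteins and pseudogenes. Of 73 matching rows, 4 kinases, 3 binding proteins and 1 pseudogene were left out, so 65 members remained of 21965 genes. By factor number, 21 belonged to eIF1, 11 to eIF2, 14 to eIF3, 14 to eIF4, 4 to eIF5 and 1 to eIF6. Of the 65, 47 passed the filter on low counts and were tested.

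Initiation assembles a ribosome at the start codon of an mRNA. The eIF2 complex brings the initiator tRNA, and the exchange factor eIF2B recharges it with GTP. The factors eIF1, eIF1A, eIF3 and eIF5 bind the small ribosomal subunit and guide start site choice, and eIF4F (the cap-binding eIF4E, the scaffold eIF4G and the helicase eIF4A) loads the mRNA. eIF5B joins the large subunit and eIF6 keeps free large subunits from joining small ones too early. In muscle, protein synthesis and its control at eIF2 and eIF4E are known to respond to nerve activity, feeding and growth signals.

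The study had 24 RNA sequencing libraries in 6 groups of 4, a control group and mice 1, 3, 5, 7 and 14 days after denervation. Beyond tissue and day, no strain, genotype, sex or age was taken from the labels, and the labels do not tie the libraries to individual mice. The p-values therefore reflect variation between libraries, which may be technical. Sensory (dorsal root ganglion) neurons are given as the RNA source in the extraction protocol, whereas the tissue label is gastrocnemius. The defining fibre genes were abundant in every library (12 markers summed to between 304500 and 312700 CPM, counts scaled to library size, in control), while 10 sensory neuron markers summed to between 4.34 and 14.6 CPM over all libraries.

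Library totals ran from 16082846 to 20696900 counts. The libraries labelled day 3 stood apart from the other denervated groups and went partly against their label. Chrna1, the alpha subunit of the muscle acetylcholine receptor and a known denervation response gene, was at 38.0 CPM in control, 414 at day 1, 43.1 in the libraries labelled day 3 and 318 at day 5. Chrng, the fetal receptor subunit, was at 0.374, 44.4, 0.563 and 13.8 CPM in the same groups, whereas Myog, a myogenic regulator, was at 19.8, 118, 132 and 106. Those libraries also had the lowest sums of 8 proliferation markers (2.19 to 2.99 CPM, beside 6.75 to 12.3 in control and 23.7 to 67.3 in the other denervated libraries). The libraries of days 1 and 5 stood apart in another way: 12 lymphocyte markers, all of which rose there, summed to between 352 and 365 CPM at day 1 and between 495 and 517 at day 5. The same sums were 27.5 to 34.9 CPM in control, 18.3 to 20.6 in libraries labelled day 3, 55.7 to 56.5 at day 7 and 38.8 to 42.0 at day 14. The part of these cells in the member changes of days 1 and 5 was not tested. Because the day 3 group went partly against its label, its results are given as those of libraries labelled day 3. Counts for the other days were also made without the libraries labelled day 3. In bulk tissue, fewer cells of a type and less RNA per cell cannot be told apart.

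Scaling bore on the direction of many changes. The summed fibre markers went from between 304500 and 312700 CPM in control to between 60070 and 60970 at day 14, and the trimmed mean of M-values (TMM) scaling used here sets the typical gene near no change. With library totals alone, changes against control of the 14246 genes tested lay higher than after TMM by a median of 0.58, 0.38, 0.65, 0.77 and 0.72 on the log2 scale at days 1, 3, 5, 7 and 14. Changes below are those after TMM unless another scaling is named, and a gene rose or fell where its edgeR adjusted p was below 0.05. The 5 comparisons with control share the same 4 control libraries.

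After TMM, members moved both ways at every time. At day 1, 19 of the 47 rose, beside a background of 38.1% of all genes, and 21 fell, beside 36.2%. In the libraries labelled day 3, 26 rose (background 34.5%) and 14 fell (35.7%). At day 5, 22 rose (38.5%) and 17 fell (35.8%), and at day 7, 21 rose (40.2%) and 22 fell (36.7%). At day 14, 16 rose (39.2%) and 24 fell (35.3%). The member medians were -0.041, 0.16, 0.067, 0.011 and -0.11 (log2) beside all-gene medians of 0.033, -0.026, 0.03, 0.05 and 0.064. With library totals alone, 44, 39, 45, 42 and 44 members rose, where 70.5%, 54.9%, 72.2%, 74.4% and 74.4% of all genes did, and 2, 5, 1, 3 and 3 members fell, where 13.3%, 18.2%, 11.8%, 12.2% and 11.7% did. The background moved with the scaling as the members did.

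**Figure D1:**
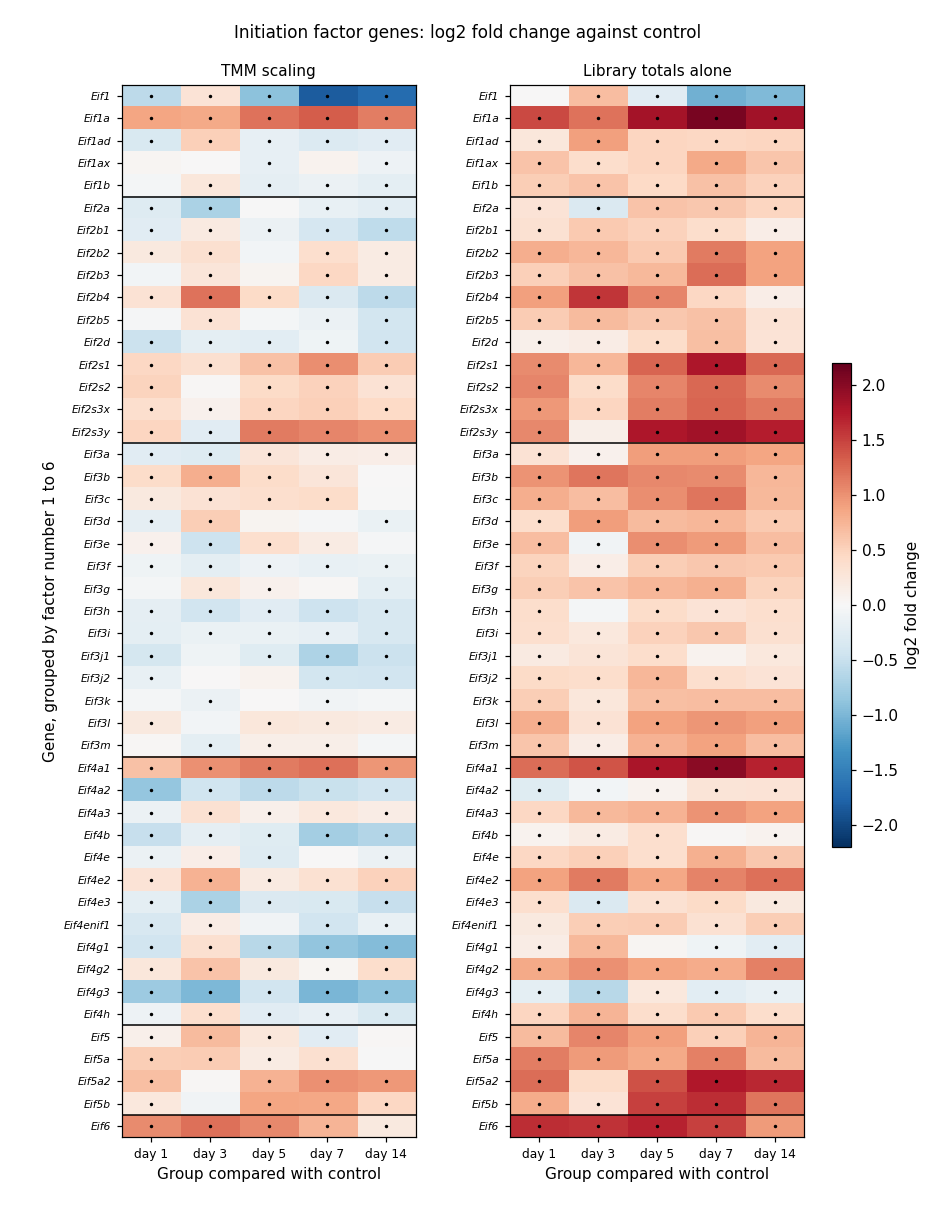
Log2 fold change against control of the 47 tested members (rows, grouped by factor number 1 to 6) at 5 times (columns), after TMM (left) and with library totals alone (right). Dots mark an adjusted p below 0.05. Rows that are red in both panels, such as Eif1a, Eif4a1 and Eif6, kept their direction, whereas most pale blue rows on the left turn red on the right, Eif4b among them.

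After TMM, 7 members (Eif1a, Eif2s1, Eif2s3x, Eif4a1, Eif4e2, Eif4g2 and Eif6) rose at all 5 times, as 1854 of the 14246 genes did. They did so with library totals alone too, which follows from the upward shift of that scaling, under which 35 members and 41.9% of all genes rose at all 5 times. Another 8 (Eif2d, Eif3f, Eif3h, Eif3i, Eif4a2, Eif4b, Eif4e3 and Eif4g3) fell at all 5 times after TMM (15.4% of all genes), but none of these fell at all 5 times with library totals alone. Eif4g3 came closest, falling at 4 of the 5 times under both. After TMM, 18 members rose at some time and fell at another, as 28.4% of all genes did.

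By mean CPM after TMM, the highest group was that labelled day 3 for 19 of the 47 members (21.6% of all genes), control for 10 (23.0%), day 7 for 10 (14.5%) and day 5 for 8 (15.1%). Days 1 and 14 were highest for no member (9.11% and 16.8% of all genes). On library totals alone, day 7 was highest for 24 members (27.4%), the group labelled day 3 for 10 (15.3%) and control for none (6.61%). Against day 1, the libraries labelled day 3 had 28 members higher (background 36.1%) and 15 lower (38.0%), and with library totals alone 18 were higher (24.8%) and 21 lower (51.0%). Day 5 against the libraries labelled day 3 had 19 members higher (38.2%) and 25 lower (39.2%), or 27 (51.6%) and 15 (25.4%) with library totals alone. Between days 5 and 7, 13 rose (33.8%) and 20 fell (34.4%), or 22 (43.1%) and 14 (26.6%) with library totals alone. Between days 7 and 14, 10 rose (26.0%) and 26 fell (25.6%), and library totals alone gave 9 (21.0%) and 29 (30.5%).

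Among the start codon factors, Eif1 fell late and Eif1a rose. Eif1 (ENSMUSG00000035530, chromosome 11, 100319885 to 100322096, plus strand), which holds the scanning ribosome open until a start codon is found, was the most abundant member in control by TPM (a level per transcript length, scaled to the same total in each library). It stood at 857, 854, 877 and 876 CPM in the 4 control libraries, 580.5, 577, 591 and 575 at day 1 and 1053, 1129, 1067 and 1033 in those labelled day 3. It was then 463, 470.4, 467 and 461 at day 5, 251, 248, 242 and 237 at day 7 and 266, 263, 279 and 266 at day 14. No library of any group overlapped control, and the libraries labelled day 3 were the only ones above it. Eif1 fell by 1.82 (log2, SE 0.024, edgeR adjusted p = 2.5e-46) at day 7 and by 1.69 at day 14, and these falls kept their direction with library totals alone (-1.06 and -0.97). The day 1 change of -0.58 did not (0.0065 with library totals alone). Relative to its paralogue Eif1b in the same library, a ratio that no scaling touches, Eif1 went from 19.3 ± 0.72 times by TPM in control to 5.95 ± 0.35 times at day 7 (SD, n = 4).

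Eif1a, one of a pair of eIF1A genes, which stabilise the ribosome complex on the mRNA, rose at all 5 times. Its CPM was 11.4, 13.1, 11.2 and 16.4 in control and 23.4, 24, 25 and 22.4 at day 1. It was 29.4, 31.9, 27.4 and 30 at day 5 and 31.6, 32.2, 33.5 and 33.1 at day 7, and every denervated library lay above every control library. Eif1a rose by 1.32 ± 0.079 at day 7 (log2, SE), and by 0.86, 0.83, 1.19 and 1.12 at the other times in order. Its partner Eif1ax changed by no more than -0.17 (day 5, 0.47 with library totals alone), and Eif1a rose against it: the TPM ratio of Eif1a to Eif1ax was 0.332 ± 0.059 in control and 0.793 ± 0.11 at day 5 (SD, n = 4, with no overlap). The pair are near copies, so the authors' sharing of ambiguous reads bears on that ratio.

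All 4 genes of the eIF2 complex rose at days 1, 5, 7 and 14, with medians of 0.46, 0.56, 0.77 and 0.50 (log2), where 38.1%, 38.5%, 40.2% and 39.2% of all genes rose. They rose with library totals alone too, where 70.5%, 72.2%, 74.4% and 74.4% of all genes did. In the libraries labelled day 3, 2 rose, 1 fell and 1 was not called, and all 4 were lower than at day 1 under both scalings. Eif2s1 (ENSMUSG00000021116, chromosome 12, 78861819 to 78887010, plus strand), the alpha subunit whose phosphorylation slows initiation, stood at 45.5, 43.1, 43.3 and 44.5 CPM in control, 60.4, 60.6, 58.6 and 62.8 at day 1 and 58.5, 56.5, 55.5 and 53.8 in libraries labelled day 3. It was 68.8, 69.3, 67 and 70 at day 5, 92.9, 90.1, 89.1 and 85.9 at day 7 and 65.2, 63.5, 65 and 65.1 at day 14. All denervated libraries exceeded all control libraries, and day 7 was the highest group without overlap. The day 7 change was 1.02 ± 0.04 (log2, SE, edgeR adjusted p = 4.2e-27). Eif2s2, the beta subunit, changed by 0.51 and Eif2s3x, an X-linked gamma subunit gene, by 0.52 at day 7.

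Eif2s3y (ENSMUSG00000069049, chromosome Y, 1010543 to 1028847, plus strand), the Y-linked gamma subunit gene, was counted in all 24 libraries. It stood at 16.1, 19.3, 21.8 and 21.1 CPM in control, 28.3, 27.6, 27.5 and 25.2 at day 1 and 16.2, 17.2, 17.3 and 14.8 in libraries labelled day 3. It was then 42.6, 43.8, 42.7 and 43.1 at day 5, 39.1, 45.7, 41.9 and 38.8 at day 7 and 40.1, 39, 42.5 and 36.5 at day 14. The libraries of days 1, 5, 7 and 14 lay above all control libraries, and those labelled day 3 overlapped control. The changes were 1.14, 1.08 and 1.01 at days 5, 7 and 14 (log2), and -0.26 in libraries labelled day 3, where the library totals alone gave 0.12. Of other Y-linked genes, Uty changed by 0.52, 0.73 and 0.86 at days 5, 7 and 14 and by -0.91 in libraries labelled day 3. Ddx3y changed by 0.61, 0.40 and 0.44 at days 5, 7 and 14, and Kdm5d by 0.26, 0.18 (not called) and 0.20. In libraries labelled day 3, Kdm5d changed by -0.47 and Ddx3y was not called (-0.014). At day 1, where Eif2s3y changed by 0.47, Uty changed by -0.26, and Ddx3y (-0.054) and Kdm5d (-0.029) were not called. The TPM ratio of Eif2s3x to Eif2s3y in a library fell from 2.63 ± 0.19 in control to 1.57 ± 0.069 at day 5, 1.71 ± 0.075 at day 7 and 1.65 ± 0.063 at day 14. The mix of male and female tissue in the libraries was not tested as a part of this.

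The eIF2B genes, which encode the exchange factor that recharges eIF2, took a different course. All 5 rose in the libraries labelled day 3 (median 0.32, range 0.20 to 1.20, log2), where eIF2 was nearest to control and 34.5% of all genes rose. At day 14, 2 rose (39.2% of all genes) and 3 fell (35.3%) after TMM, although all 5 rose with library totals alone (74.4%). Eif2b4 (ENSMUSG00000029145, chromosome 5, 31187558 to 31193430, minus strand), the delta subunit, moved most. It stood at 83.9, 85.6, 77 and 82.9 CPM in control, 104, 101, 103 and 102 at day 1 and 188, 179.7, 191 and 198 in libraries labelled day 3. It was 112, 109.6, 108 and 112 at day 5, 65, 65.1, 65.3 and 69 at day 7 and 56.8, 55.8, 54.3 and 53.8 at day 14. Days 1 to 5 were above control without overlap and days 7 and 14 below it. The change in libraries labelled day 3 was 1.20 ± 0.034 (log2, SE), and the later falls of 0.32 at day 7 and 0.58 at day 14 were rises of 0.45 and 0.14 with library totals alone. Eif2b4 overlaps Snx17 on the other strand, and the use of strand in counting was not stated in the labels. Eif2b5, the catalytic subunit, was at 104, 113, 105 and 113 CPM in control and 138, 132, 140.2 and 134 in libraries labelled day 3 (change 0.32, log2).

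The order of the eIF2 and eIF2B genes does not depend on scaling, because both shift by the same amount. At day 7 the eIF2 genes changed by between 0.51 and 1.08 and the eIF2B genes by between -0.37 and 0.46. At day 14 the ranges were 0.32 to 1.01 and -0.58 to 0.18, so that every eIF2 gene lay above every eIF2B gene at both times. Between day 1 and the libraries labelled day 3 the order turned round: eIF2 genes moved by between -0.73 and -0.11 and eIF2B genes by between 0.14 and 0.89. From those libraries to day 5 it turned again, with 0.29 to 1.39 for eIF2 and -0.77 to -0.20 for eIF2B. These ranges describe 4 and 5 genes and carry no test of the complexes.

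**Figure D2:**
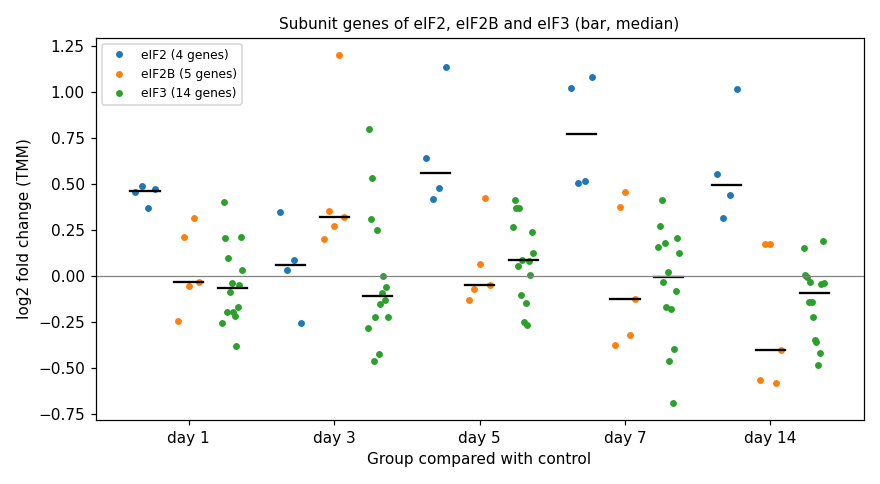
Log2 fold change against control after TMM of the genes of eIF2 (4), eIF2B (5) and eIF3 (14) at 5 times, 1 point per gene, with the median as a bar. The eIF2 points lie above the eIF2B points at days 7 and 14, and overlap them in the libraries labelled day 3. With library totals alone all points of a day move up together, which leaves the order but turns the eIF2B falls at days 7 and 14 into rises.

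The 14 genes of eIF3, the large scaffold on the small ribosomal subunit, changed in both directions. After TMM, 4 rose and 7 fell at day 1 (background 38.1% and 36.2%), 7 rose and 4 fell at day 5 (38.5% and 35.8%), and 2 rose and 7 fell at day 14 (39.2% and 35.3%). All 14 rose with library totals alone at each of these times, where 70.5%, 72.2% and 74.4% of all genes did. In libraries labelled day 3, 4 rose and 7 fell after TMM (34.5% and 35.7%), and at day 7, 6 rose and 6 fell (40.2% and 36.7%). With library totals alone, 12 rose and 1 fell in libraries labelled day 3 (54.9% and 18.2%). At day 7 that scaling gave 13 risen and 0 fallen (74.4% and 12.2%). Their log2 changes lay between -0.69 (Eif3j1, day 7, 0.081 with library totals alone) and 0.80 (Eif3b, libraries labelled day 3). Eif3b, a core subunit, was at 178, 185, 175 and 184 CPM in control and 314, 308, 309 and 322 in libraries labelled day 3, with no overlap. Eif3e, a peripheral subunit, was at 197, 190.1, 208 and 204 CPM in control, 147, 147, 143 and 143 in libraries labelled day 3 and 255, 267, 256 and 255 at day 5. In those libraries Eif3e and Eif3b were called in opposite directions: Eif3e changed by -0.46 (-0.085 with library totals alone) and Eif3b by 0.80 (1.17). Eif3a, the largest core subunit, went from 121, 131, 128 and 128 CPM in control to 102, 104, 108 and 106 in libraries labelled day 3 and 153, 148, 154 and 158 at day 5. Its fall of 0.28 (log2) in libraries labelled day 3 was a rise of 0.097 with library totals alone. Eif3h, the eIF3 gene of highest mean TPM, fell at all 5 times after TMM, by between 0.19 and 0.46, but rose at days 1, 5, 7 and 14 with library totals alone. Eif3j1, which overlaps Spg11 on the other strand and has the near copy Eif3j2, fell by 0.69 at day 7 (0.081 with library totals alone). In libraries labelled day 3 it was not called (-0.091), but without replicate 2 of that group it was (-0.14, edgeR adjusted p = 0.007).

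The balance of the eIF4A helicase genes shifted. Eif4a1 (ENSMUSG00000059796, chromosome 11, 69666936 to 69672423, minus strand) and Eif4a2 (ENSMUSG00000022884, chromosome 16, 23107444 to 23114136, plus strand) encode closely related eIF4A proteins that unwind mRNA near the cap. Their promoters differ in sequence, and 230 bases of each are shown (200 before and 30 from the annotated first base, RefSeq, GRCm38.p6), with the E-box CACGTG, a motif of the MYC and USF families, in capitals where present.
Eif4a1, chr11:69672394-69672623, minus strand: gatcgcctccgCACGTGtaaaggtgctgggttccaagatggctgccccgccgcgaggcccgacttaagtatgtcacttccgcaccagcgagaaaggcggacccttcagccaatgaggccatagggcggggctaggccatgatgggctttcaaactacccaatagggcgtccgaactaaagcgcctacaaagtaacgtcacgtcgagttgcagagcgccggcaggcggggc
Eif4a2, chr16:23107268-23107497, plus strand: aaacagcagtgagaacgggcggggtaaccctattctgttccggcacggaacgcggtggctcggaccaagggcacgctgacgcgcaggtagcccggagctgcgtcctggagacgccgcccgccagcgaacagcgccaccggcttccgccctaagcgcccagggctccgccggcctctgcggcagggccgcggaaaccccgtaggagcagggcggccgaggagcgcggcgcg
Eif4a1 has an E-box upstream of its start, and these letters are not in the Eif4a2 window.

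Eif4a1 stood at 239, 229, 238 and 234 CPM in control, 367, 358, 375 and 365 at day 1 and 472, 472, 482 and 461 in libraries labelled day 3. It was 513, 529.7, 527 and 512 at day 5, 552, 539, 542 and 555 at day 7 and 459.6, 475, 467 and 449.9 at day 14. Every denervated library was above every control library. Eif4a1 rose by 1.22 ± 0.023 (1.99 with library totals alone, log2, SE, edgeR adjusted p = 8e-40) at day 7, its highest time, and by 0.64 at day 1. Eif4a2 stood at 648, 656, 689 and 678 CPM in control, 374, 366, 370.4 and 365 at day 1 and 497, 498, 495 and 488 in libraries labelled day 3. It was 442, 454, 444 and 452 at day 5, 468, 472, 481 and 483 at day 7 and 495, 498, 507 and 497 at day 14. All denervated libraries were below all control libraries after TMM, with the lowest at day 1. Eif4a2 overlaps Rfc4 on the other strand. Eif4a2 fell by 0.86 at day 1 (-0.27 with library totals alone), and its falls of 0.58, 0.49 and 0.42 at days 5, 7 and 14 were rises of 0.070, 0.28 and 0.30 with library totals alone.

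The ratio within each library removes that dependence. By TPM there were 0.353 ± 0.015 Eif4a1 transcripts per Eif4a2 transcript in control (SD, n = 4), and 1.004 ± 0.041, 0.979 ± 0.016, 1.18 ± 0.038, 1.18 ± 0.037 and 0.943 ± 0.025 in the groups labelled day 1, 3, 5, 7 and 14. Control libraries ran from 0.335 to 0.366 and denervated ones from 0.928 to 1.23, so the groups did not overlap at any time. On counts, the log2 ratio rose by 1.495 ± 0.026 at day 1 and 1.72 ± 0.028 at day 5 (SE, exact permutation test, 4 against 4, two-sided, p = 0.0286, adjusted p = 0.0373 over 60 tests of 12 pairs at 5 times). That p is the smallest that 4 against 4 libraries can give, and 46 of the 60 tests reached it. For Eif4a1 to Eif4a2 the changes correspond to 2.82-fold and 3.3-fold. The shift was present in the libraries labelled day 3 as well (1.44). Cd68, a macrophage gene 782 bases downstream of Eif4a1 on the same strand, was at 16.1 CPM in control, 92.0 at day 1 and 30.5 at day 14, while Eif4a1 was at 235, 366 and 463. Macrophage markers (12 genes) summed to between 668 and 678 CPM in control and between 1144 and 1902 in denervated libraries, and their part in the shift was not tested.

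The eIF4G scaffolds, which link the cap, the helicase and eIF3, also shifted among themselves. Windows of the same kind for Eif4g1 (ENSMUSG00000045983, chromosome 16, 20668313 to 20692884, plus strand) and Eif4g3 are shown because these 2 scaffold genes moved apart in the libraries labelled day 3.
Eif4g1, chr16:20672527-20672756, plus strand: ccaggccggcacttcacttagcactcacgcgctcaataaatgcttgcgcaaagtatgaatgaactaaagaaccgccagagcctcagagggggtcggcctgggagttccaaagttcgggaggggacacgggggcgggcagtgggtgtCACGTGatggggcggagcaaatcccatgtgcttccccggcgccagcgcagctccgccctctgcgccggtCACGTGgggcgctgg
Eif4g3, chr4:137993255-137993484, plus strand: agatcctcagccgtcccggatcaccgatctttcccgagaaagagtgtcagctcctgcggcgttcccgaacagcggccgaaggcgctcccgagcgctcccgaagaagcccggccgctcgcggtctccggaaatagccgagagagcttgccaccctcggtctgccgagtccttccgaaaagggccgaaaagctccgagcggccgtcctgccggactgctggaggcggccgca
Eif4g1 has an E-box on each side of its annotated start, the upstream one beginning at -54 counted from the annotated first base, and these letters are not in the Eif4g3 window. Both windows lie inside the gene spans used here, which begin at 20668313 (Eif4g1) and 137993022 (Eif4g3). The annotated starts shown are therefore not the first bases of those spans.

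Eif4g1 stood at 910, 912, 896 and 912 CPM in control, 695, 677, 671 and 666 at day 1 and 1161, 1145, 1140 and 1161 in libraries labelled day 3. It was 600.2, 582, 589 and 611 at day 5, 498, 495, 494 and 507 at day 7 and 474, 472, 458 and 479.7 at day 14. The libraries labelled day 3 were above all control libraries and every other denervated library was below them. Eif4g1 rose by 0.34 in libraries labelled day 3 and fell by 0.95 at day 14 (log2, edgeR adjusted p = 3.7e-38), a fall that was -0.23 with library totals alone. The falls at days 1 and 5 (-0.42 and -0.61) were 0.16 and 0.038 with library totals alone. Eif4g3, a second scaffold, stood at 312, 307, 301 and 307 CPM in control, 178, 179, 178 and 171 at day 1 and 160.5, 146, 151 and 161 in libraries labelled day 3. It was 236, 226, 227 and 227 at day 5, 156, 149, 152 and 157 at day 7 and 168, 165, 168 and 164 at day 14. It was below control everywhere after TMM, by 1.00 at day 7, but its fall of 0.42 at day 5 was a rise of 0.23 with library totals alone.

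The TPM ratio of Eif4g1 to Eif4g3 was 3.25 ± 0.045 in control, 4.5 ± 0.15 at day 1, 8.27 ± 0.43 in libraries labelled day 3 and 3.09 ± 0.092 at day 5 (SD, n = 4). The largest of these shifts was in the libraries labelled day 3, which went partly against that label, at 1.33 on the log2 count scale against 0.37, -0.19, 0.14 and -0.064 at the other times. Against Eif4g2, a scaffold relative that does not bind eIF4E, the TPM ratio of Eif4g1 fell from 1.64 ± 0.057 in control to 1.04 ± 0.033 at day 1, 0.917 ± 0.033 at day 5 and 0.661 ± 0.016 at day 14. On log2 counts this was -1.34 ± 0.033 at day 14 (SE, exact permutation p = 0.0286, adjusted 0.0373), with no overlap at any time. Eif4g2 itself rose at all 5 times under both scalings, by between 0.047 (day 7) and 0.63 (libraries labelled day 3).

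**Figure D3:**
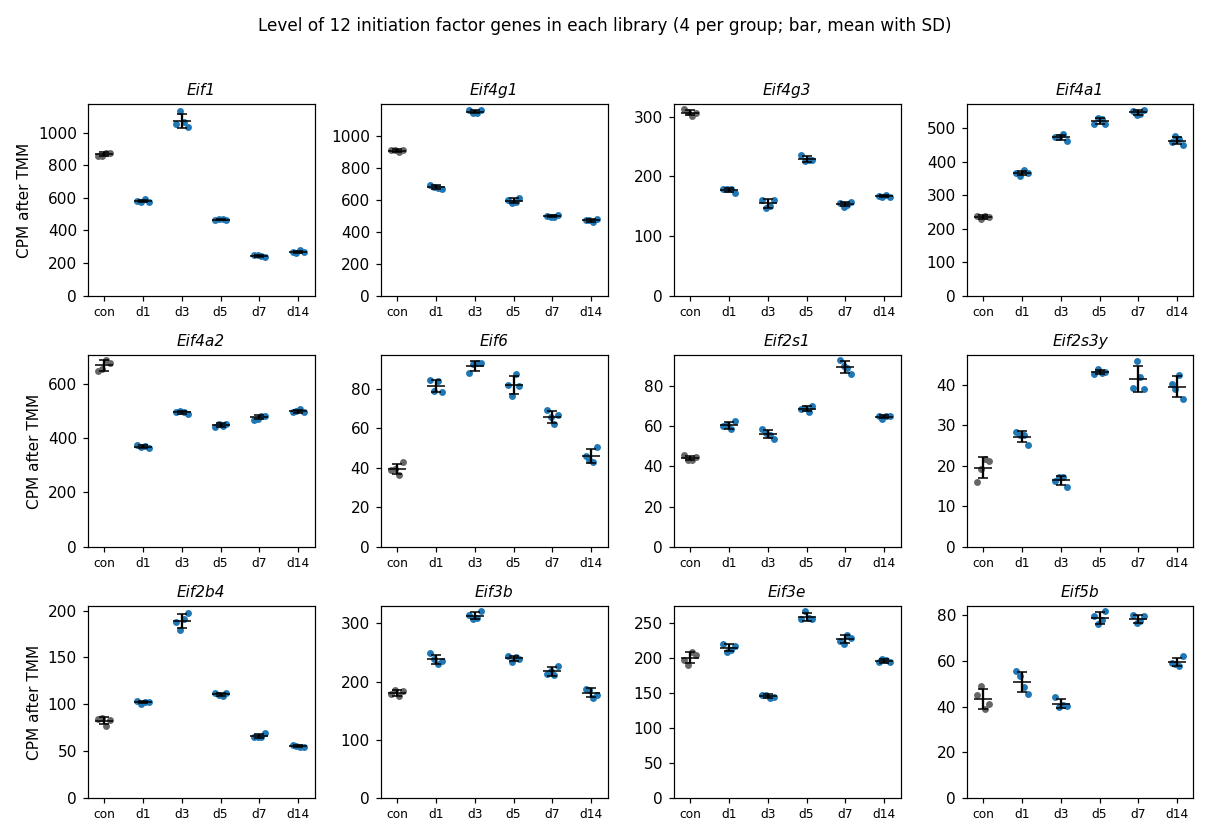
CPM after TMM of 12 members in each of the 24 libraries (points), with the group mean and SD, for control (con) and the groups labelled day 1 to day 14. Eif1, Eif4g1 and Eif2b4 peak in libraries labelled day 3, Eif4a1 rises while Eif4a2 falls, and Eif2s3y, Eif3e and Eif5b are lowest in libraries labelled day 3. With library totals alone, Eif4a2 is above control at days 5, 7 and 14, and the day 1 fall of Eif4g1 and the day 7 and 14 falls of Eif2b4 turn into rises. The day 5 fall of Eif4g1 becomes 0.038 (log2, not called) with library totals alone. In libraries labelled day 3, that scaling puts Eif2s3y (0.12, log2, not called) and Eif5b (0.30) above control.

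Of the cap-binding genes, Eif4e2 rose and Eif4e3 fell after TMM. Eif4e, the main cap-binding protein, was at 73.5, 69.6, 74.5 and 73.5 CPM in control, 81.2, 83.5, 75.5 and 81.7 in libraries labelled day 3 and 60.5, 61, 63.3 and 55.2 at day 5. Its changes were -0.13, 0.15, -0.28 and -0.12 at days 1, 3, 5 and 14 and were not called at day 7 (0.011), and with library totals alone every one was a rise. The day 14 call rested on 1 library: without replicate 3 of that group the change was -0.087, with an edgeR adjusted p = 0.072. Eif4e2, a cap-binding relative known as a repressor of some mRNAs, was at 63.1, 62.9, 70 and 59.6 CPM in control and 107, 107, 108 and 110.1 in libraries labelled day 3, and rose at all 5 times under both scalings, by between 0.21 and 0.76. Its upstream neighbour Chrng, on the same strand and 1219 bases away, was at 0.563 CPM in the libraries where Eif4e2 was highest (108 CPM) and at 291 CPM at day 14 (Eif4e2 90.5 CPM). Eif4e3 fell at all 5 times after TMM, from 38.1, 35.2, 32.6 and 37.7 CPM in control to 23.1, 25.1, 18.9 and 21.4 in libraries labelled day 3, but was above control at days 1, 5, 7 and 14 with library totals alone. It overlaps Gm20696, a protein-coding gene on the same strand. The TPM ratio of Eif4e to Eif4e2 was 0.986 ± 0.12 in control and between 0.643 and 0.780 (group means) after denervation.

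Of the eIF4E-binding proteins, which block eIF4E, Eif4ebp1 fell from 236 CPM in control to 57.7 at day 14 (log2 -2.03, and -1.31 with library totals alone). The TPM ratio of Eif4ebp1 to Eif4e was 3.45 ± 0.3 in control, 3.01 ± 0.093 at day 1 and 3.35 ± 0.21 at day 5. It was 1.13 ± 0.041 at day 7 and 0.86 ± 0.077 at day 14. The fall was therefore a late one, -1.44 and -1.91 on log2 counts. At day 5 and in libraries labelled day 3 the count ratio was higher than control (0.16 and 0.17), but the TPM ratio was not (-0.042 and -0.038).

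**Figure D4:**
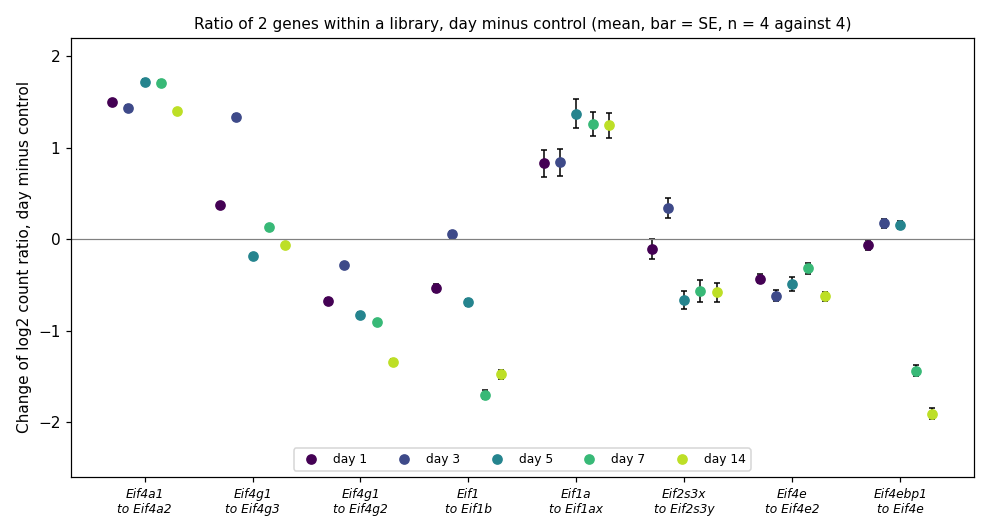
Change of the log2 count ratio of 2 genes within a library, group mean after denervation minus control mean (points, 4 libraries against 4, bars SE), for 8 gene pairs at 5 times. Eif4a1 rose against Eif4a2 by between 1.40 and 1.72 at every time, and Eif4g1 fell most against Eif4g2 at day 14 and Eif1 against Eif1b at day 7, whereas Eif4g1 to Eif4g3 stands out in the libraries labelled day 3. Library scaling cancels in these ratios, and with TPM in place of counts the small Eif4ebp1 to Eif4e rises at days 3 and 5 turn into falls.

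Of the 4 eIF5 genes tested, 2 rose at day 14, Eif5a2 and Eif5b, beside 39.2% of all genes. With library totals alone all 4 rose at that time, beside 74.4%. Eif5, which triggers GTP hydrolysis by eIF2, rose by 0.11, 0.70 and 0.26 in the groups labelled day 1, 3 and 5 and fell by 0.25 at day 7 (log2), where library totals alone gave a rise of 0.52. Eif5b (ENSMUSG00000026083, chromosome 1, 37998010 to 38055579, plus strand), the GTPase that joins the subunits, was at 44.9, 48.9, 38.8 and 41.1 CPM in control, 44.2, 39.9, 40.5 and 40.3 in libraries labelled day 3 and 79.6, 76.1, 77.8 and 81.8 at day 5. It was 80.1, 76.6, 77.7 and 79.8 at day 7 and 59.1, 58.8, 57.9 and 62.1 at day 14, above all control libraries from day 5 on. Eif5b rose by 0.86 ± 0.054 at day 5 (log2, SE), and in libraries labelled day 3 it was not called (-0.074, and 0.30 with library totals alone). It overlaps Rev1 on the other strand.

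Eif5a, which carries hypusine and is also an elongation factor, stood at 348, 343, 359.9 and 352 CPM in control, 504, 509, 525 and 506 at day 1 and 512, 519, 515 and 510.5 in libraries labelled day 3. It was 399, 392, 403 and 400 at day 5, 449, 451, 444 and 436 at day 7 and 349.8, 354, 337 and 348 at day 14. Day 14 overlapped control after TMM (-0.016, edgeR adjusted p = 0.53), although library totals alone gave 0.70. Its paralogue Eif5a2, the eIF5 gene of lowest level, stood at 1.71, 3.5, 2.09 and 2.1 CPM in control and 4.38, 4.71, 3.77 and 6 at day 7, without overlap. Eif5a2 rose by 0.66, 0.76, 1.00 ± 0.2 and 0.95 at days 1, 5, 7 and 14 (log2, SE where shown) and was not called in libraries labelled day 3 (0.023).

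Eif6 (ENSMUSG00000027613, chromosome 2, 155819832 to 155826925, minus strand), the anti-association factor, made the largest rise of any member at day 1. It stood at 39.1, 39.3, 36.5 and 43.1 CPM in control, 84.4, 79.2, 83.8 and 78.5 at day 1 and 87.9, 92.5, 93.2 and 93.2 in libraries labelled day 3. It was 81.9, 76.3, 87.8 and 81.8 at day 5, 69.3, 65.7, 62.1 and 66.8 at day 7 and 46.2, 44, 43.2 and 50.7 at day 14. Every denervated library was above every control library, and the level came down between days 5 and 14. The changes were 1.05 ± 0.052 at day 1, 1.22 in libraries labelled day 3, 1.05 at day 5, 0.74 at day 7 and 0.22 ± 0.055 at day 14 (log2, SE where shown). Cytosolic ribosomal protein genes, the other part of the ribosome supply, rose in 80 of 84 at day 1, 43 in libraries labelled day 3 and 73 at day 14 (median 0.41, 0.084 and 0.31, log2). Of all genes, 38.1%, 34.5% and 39.2% rose in these groups. In the same order, 1, 15 and 3 of the 84 fell, and the medians with library totals alone were 0.99, 0.46 and 1.03.

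The order of the members by TPM changed with time. In control Eif1 led at 784 ± 15 TPM (SD, n = 4), followed by Eif4a2 at 501 ± 20 TPM, Eif5a at 373 ± 14 TPM, Eif3h at 264 ± 9.0 TPM and Eif4g1 at 221 ± 2.5 TPM. None of these 5 overlapped its neighbour in the order. At day 14 Eif4a2 (620 ± 7.9 TPM) and Eif5a (620 ± 15 TPM) overlapped, Eif5a also overlapped Eif4a1 (585 ± 12 TPM), and Eif1 had dropped to 415 ± 12 TPM. In libraries labelled day 3 Eif1 led at 1297 ± 40 TPM. The members together took 4793 ± 77 TPM in control, 6985 ± 34 at day 1 and 6800 ± 44 at day 14, on a scale with the same total in each library. Summed CPM after TMM went the other way at these times, from 8238 ± 48 in control to 7626 ± 30 at day 1 and 6925 ± 47 at day 14. In libraries labelled day 3 both sums were above control (7345 ± 45 TPM and 9424 ± 41 CPM).

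At the other end, 15 members had no count in any library, and 3 more (Eif4e1b, Eif1ad8 and Eif1ad6) had 6, 2 and 1 counts over all 24 libraries. A count of 0 in a library allows up to 3 counts there, so these genes were not detectable at this depth. The 16 numbered Eif1ad copies were all among the genes that were not tested. Eif1ad itself, which overlaps Banf1 on the other strand, was tested.

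Promoter entries of RefSeq (250 bases before and 50 after the annotated start) matched 38 of the tested members. Entries for Eif1a, Eif2b3, Eif3e, Eif3h, Eif3i, Eif3j2, Eif4e3, Eif4g2 and Eif6 were missing. The E-box CACGTG, which reads the same on both strands, was in 10 of the 38 (26.3%), beside 8.09% of 27025 genes with an entry and 11.3% of the 10985 that were tested. The 10 were Eif1b, Eif3a, Eif3f, Eif3k, Eif4a1, Eif4e, Eif4g1, Eif4h, Eif5a and Eif5a2, of which 5 were higher and 3 lower in libraries labelled day 3 than at day 1, so genes with the motif moved both ways. The antioxidant element TGACNNNGC (both strands) was in 8 of the 38 (21.1%), beside 16.9% of tested genes, and the heat shock element GAANNTTC in 4 (10.5%, beside 7.03%). The stress element TGATGNAA was in 1 and the cyclic AMP element TGACGTCA in none.

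Transcripts of the translation machinery often begin with a C and a run of pyrimidines, a feature through which mTORC1 controls their translation. A C at the annotated first base followed by at least 4 pyrimidines was found in 2 of the 38 (5.26%, beside 2.95% of tested genes). With the C allowed up to 5 bases either side of that base, it was 10 of the 38 (26.3%, beside 23.7%). The 2 with the C at the annotated first base are shown for that reason. In them, 10 bases before the start are in lower case and the first 10 transcribed bases in capitals (RefSeq, GRCm38.p6).
Eif3f, chr7:108934405-108934434, plus strand: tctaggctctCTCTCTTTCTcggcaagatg
Eif2s3x, chrX:94212632-94212661, minus strand: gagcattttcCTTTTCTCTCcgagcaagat
Eif3f fell at all 5 times after TMM (by between 0.087 and 0.22, log2) but not with library totals alone, and Eif2s3x rose at all 5 times under both.

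Other genes of the pathway were counted from lists that named no member. Beside their counts, 38.1% of all genes rose and 36.2% fell at day 1, and 34.5% and 35.7% in libraries labelled day 3. These shares were 38.5% and 35.8% at day 5 and 39.2% and 35.3% at day 14. With library totals alone they were 70.5% and 13.3% at day 1 and 74.4% and 11.7% at day 14. In libraries labelled day 3 that scaling gave 54.9% and 18.2%. Of 20 initiation partners, 9 rose and 7 fell at day 1, 14 rose and 5 fell at day 5, and 10 rose and 8 fell at day 14 (medians 0.048, 0.30 and 0.090, log2), and with library totals alone 17 rose at each of these times (70.5%, 72.2% and 74.4% of all genes). Mknk2, a kinase of eIF4E, rose from 680 CPM in control to 2746 at day 5 (2.01, log2), and Pdcd4, an inhibitor of eIF4A, from 15.8 to 44.3 (1.49). Ppp1r15a, which guides dephosphorylation of eIF2 alpha, fell from 237 CPM to 50.8 at day 7 (-2.22, and -1.45 with library totals alone). Of 6 termination and release factors, 2 rose and 2 fell at day 1, and 3 rose and 2 fell at day 14. With library totals alone, 5 rose and 1 fell at both times. Of the 7 genes of eIF2 kinases and eIF4E-binding proteins, 2 rose and 4 fell at day 1, and 1 rose and 4 fell at day 14. Library totals alone gave 4 risen and 2 fallen at day 1, and 3 risen and 3 fallen at day 14. Of 12 targets of the integrated stress response, 4 rose and 8 fell at day 1, 9 rose and 3 fell in libraries labelled day 3, and 4 rose and 6 fell at day 14. With library totals alone these counts were 5 and 3, 9 and 3, and 7 and 3. The medians of these targets were -0.52, 0.85 and -0.19 (log2), or 0.063, 1.23 and 0.52 with library totals alone. Chac1 was at 131 CPM in control and 1.82 at day 14 (-6.16), whereas Asns, asparagine synthetase, rose from 2.33 to 14.0 CPM at day 7 (2.59).

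Among the 14 elongation factors, the muscle form and the general form of eEF1A changed places. Eef1a2, the form of adult muscle and neurons, was at 2618 ± 32 CPM in control and 487 ± 4.8 CPM at day 14 (log2 -2.43 ± 0.018, SE, and -1.71 with library totals alone). Eef1a1, the general form, was at 2399 ± 35 CPM in control and 6289 ± 40 CPM at day 14 (SD, n = 4; log2 1.39, and 2.11 with library totals alone). Of 20 mTORC1 signalling genes, 8 rose and 9 fell at day 1, and 7 rose and 8 fell at day 14, with a median of -0.0069 (log2). With library totals alone, 16 rose and 3 fell at day 1 (70.5% and 13.3% of all genes). At day 14 that scaling gave 14 risen and 5 fallen (74.4% and 11.7%). Sesn1, a sestrin that restrains mTORC1, fell from 218 to 33.0 CPM at day 1 (-2.73).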

How the data were processed

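Polyadenylated RNA of 24 mouse gastrocnemius libraries had been sequenced. The authors deposited 1 table with expected counts (estimated counts that need not be whole) and TPM per library, per the file headers. Of the expected counts, 7.01% were not whole (tolerance 1e-09) and they were rounded before testing. TPM was deposited by the authors and used for levels and ratios. For the aligner, the counter, the build and the use of strand, nothing was given in the labels or the header. Coordinates are 1-based from GENCODE M21 (GRCm38), which holds 21806 of the table's identifiers and may not be the authors' build. Library totals ran from 16082846 to 20696900 counts.

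All 24 libraries entered 1 edgeR 4.0.16 quasi-likelihood fit (R 4.3.3, TMM, default expression filter, 14246 genes, 1 coefficient per group). Tests were two-sided with Benjamini-Hochberg adjustment over all genes tested, and an adjusted p below 0.05 was a call. Log2 ratios of 12 gene pairs (counts plus 0.5, or TPM plus 0.1) were compared by exact permutation, with adjustment over 60 tests. No 2 libraries of a group were alike within sampling noise (mean chi-square per gene 1.97 to 3.54 over 36 pairs), so none was treated as deposited again. Whether they are separate animals cannot be read from that, and the common biological coefficient of variation was low (0.0389). The members, lists and pairs were chosen with earlier results of these data known. Members named with values in every library were a fixed list of key genes, the member of highest mean TPM per factor number and the 2 largest changes per factor number. Eif2s2, Eif2s3x, Eif3e, Eif4e2, Eif4g2, Eif3f, Eif5 and Eif1ax and the genes that check the labels were added after their values were seen. From the other lists, up to 3 genes with the largest change were taken. On simulated counts for day 1 against control (12676 genes), the calls covered 8 of the 50 genes simulated with a 1.1-fold change and 48 of the 50 with a 2-fold change, with false calls for 3 of 12476. Few genes were changed there, equally up and down, so these figures cannot speak to the effect of scaling on direction. Alternatives were DESeq2 1.42.0 and its size factors, library totals alone, 2 other filters, a replicate block, only the groups compared, TPM for ratios, each library left out and, added after seeing the data, the libraries labelled day 3 left out.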

Additional observations from a re-analysis of the deposited data

Results flagged for a closer look

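Among the 120 groups of 4 libraries formed by the 20 named members, 9 had a library whose gap to the next exceeded 0.829 of the group's range, where chance flags about 1 in 20 groups. These were Eif2b4 at 69.0 CPM in day 7 replicate 4, Eif2b5 at 110.1 CPM in day 5 replicate 2, Eif2s1 at 63.6 CPM in day 14 replicate 2, Eif4e3 at 29.0 CPM in day 1 replicate 2 and Eif4g1 at 896 CPM in control replicate 3. The others were Eif4g3 at 171 CPM in day 1 replicate 4 and at 236 CPM in day 5 replicate 1, Eif5b at 44.2 CPM in replicate 1 labelled day 3 and Eif6 at 87.9 CPM in replicate 1 labelled day 3.

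Some members were called in opposite directions against control at neighbouring times, and the difference between those times passed edgeR's test as well. From day 1 to the libraries labelled day 3, Eif1 rose by 0.88, Eif4e by 0.28 and Eif4g1 by 0.77 (log2), and Eif2s3y fell by 0.73. From the libraries labelled day 3 to day 5, Eif1 changed by -1.20, Eif4e by -0.43 and Eif4g1 by -0.95, and Eif2s3y by 1.39 and Eif3a by 0.55. From day 5 to day 7, Eif2b4 fell by 0.74. All but the last rest on the libraries labelled day 3, whose receptor genes were near control. With library totals alone most of these calls against control are no longer opposite: Eif1 at day 1 was 0.0065, Eif4e 0.45 and 0.37 and Eif4g1 0.16 and 0.038 at days 1 and 5, Eif2b4 0.45 at day 7, and Eif2s3y 0.12 and Eif3a 0.097 in libraries labelled day 3. The difference of Eif4e between day 1 and the libraries labelled day 3 also lost its call (0.076, edgeR adjusted p = 0.086).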

How the results depend on the processing

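Library totals alone moved 12 member counts by over 1.5 times: 44 rose and 2 fell at day 1, 5 fell in libraries labelled day 3, 45 rose and 1 fell at day 5, 42 rose and 3 fell at day 7, 44 rose and 3 fell at day 14, 18 rose from day 1 to those labelled day 3, 15 fell from there to day 5 and 22 rose from day 5 to 7. They also turned 34 of 100 named changes against control, to (log2) Eif1 0.0065 (day 1); Eif2b4 0.45 (day 7), 0.14 (day 14); Eif2b5 0.55 (day 1), 0.60 (day 5), 0.64 (day 7), 0.32 (day 14); Eif2s3y 0.12 (day 3); Eif3a 0.33 (day 1), 0.097 (day 3); Eif3h 0.39 (day 1), 0.40 (day 5), 0.31 (day 7), 0.37 (day 14); Eif3j1 0.20 (day 1), 0.28 (day 3), 0.38 (day 5), 0.081 (day 7), 0.24 (day 14). The others were Eif4a2 0.070 (day 5), 0.28 (day 7), 0.30 (day 14); Eif4e 0.45 (day 1), 0.37 (day 5), 0.59 (day 14); Eif4e3 0.37 (day 1), 0.34 (day 5), 0.42 (day 7), 0.21 (day 14); Eif4g1 0.16 (day 1), 0.038 (day 5); Eif4g3 0.23 (day 5); Eif5a 0.70 (day 14); Eif5b 0.30 (day 3). DESeq2, its size factors, other filters, each library left out and the libraries labelled day 3 left out moved no member count by over 1.5 times and turned no named change that was a call. Eif4e at day 7 and Eif3b at day 14, neither a call, were near 0 on either side (-0.0019 and -0.00017 with the size factors of DESeq2), and with those factors Eif3j1 in libraries labelled day 3 became a call (-0.11, edgeR adjusted p = 0.04). TPM in place of counts moved 16 of 60 pair ratios beyond 1 SD and turned Eif4ebp1 to Eif4e at days 3 (-0.038) and 5 (-0.042). Same-numbered libraries did not deviate together (60 correlations from -0.078 to 0.079, and 8 of 24 libraries correlated best with their own number). No pairing by number was therefore seen, although 4 libraries per group cannot exclude it. With the replicate block 19 members rose and 21 fell at day 1. In simulated counts at this depth most changes of 1.1-fold were missed.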
